A study of Mus musculus with 6 samples.

Results

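Transcript abundance was compared between clones Abl.2 and Abl.3 of immortalised mouse B cells, with 2 RNA-seq libraries of each clone, 4 of the 6 libraries of the series. The genes compared were the 11003, of 37315 in the abundance table, whose mean over all 6 libraries was at least 1 TPM (a transcript level scaled to gene length and to a library total of 1000000). Of these genes 699 lay on chromosome 4 and 511 on chromosome 10, which are reported apart from the other 9793 (133 of these have no chromosome in the annotation used). Both clones came from F1 hybrids of the inbred strains 129S1/SvImJ and CAST/EiJ. Abl.2 is labelled female and Abl.3 male. All cells were labelled as controls, grown with 1% DMSO (a solvent), and live cells were taken on day 2 through a density gradient. Another clone, Abl.4, which is female and was treated alike, entered the fit with its 2 libraries only to help estimate the spread. Each line is 1 clone, and its libraries are labelled as preparation replicates. The p-values therefore measure the spread between library preparations, and differences of clone, animal and sex cannot be told apart.

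B cell precursors are specified by factors such as Pax5, Ebf1 and Tcf3, rearrange their antigen receptor genes with the Rag1 and Rag2 recombinase and signal through a pre-B cell receptor made with the surrogate light chains Vpreb1 and Igll1. Cytokine signals reach the nucleus through JAK kinases and STAT factors, which induce their own inhibitors of the SOCS family, while NF-kB and interferon regulatory factors drive immune response genes. Growing lymphocytes take up glucose and amino acids. The response to a shortage of amino acids runs through the factor Atf4, which raises genes of amino acid synthesis and transport.

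The labelled cell type was checked first. Vpreb1 was at 2923 and 2710.4 TPM in Abl.2 and 2839 and 2718 TPM in Abl.3, and Igll1 was at 4125 and 4082 TPM in Abl.2 and 5027 and 4508 TPM in Abl.3. Neither gene passed the test between the lines, but a fit with a term for replicate number called Igll1 lower in Abl.2. Markers of other cell types were then listed. Of 13 T cell markers, 3 or 4 were listed above 0 in each of the 4 libraries and only the kinase gene Zap70 reached 1 TPM. Their summed level was 3.18 and 3.59 TPM in Abl.2 against 10.9 and 11.4 TPM in Abl.3, while the defining Cd3g, Cd4 and the T cell receptor constant genes Trbc1 and Trbc2 were listed at 0. The summed level of 9 NK cell markers was 14.5 and 16.7 TPM against 1.2 and 0.87 TPM and was carried by Klrb1c, with Ncr1 and Gzmb at 0 in each of these libraries. Among 13 myeloid markers the sum was 162 and 197 TPM against 105 and 83.3 TPM, carried by Lyz2 on chromosome 10, the 1 called higher of 4 tested. Prtn3 and Cd68 were called lower, and both calls were lost without Abl.2 replicate 1, Abl.3 replicate 1 or Abl.3 replicate 2. Csf1r was at 0.03 TPM or below, and Csf3r, Adgre1 and Elane were at 0. Of 7 plasma cell markers 5 or 6 reached 1 TPM in each of the 4 libraries. Their sum was 1411 and 1384 TPM against 1687 and 1703 TPM, carried by Mzb1, which was lower in Abl.2, a call lost without Abl.2 replicate 1 or Abl.2 replicate 2, whereas the other 4 tested members were called higher (Sdc1 1.50, Prdm1 1.31, Irf4 0.38 and Xbp1 0.27, as log2 differences). The calls of Irf4 and Xbp1 were lost without any 1 of the 4 libraries, and those of Sdc1 and Prdm1 stayed. The stromal list held only Vim above 1 TPM, and the erythroid list summed to 1.62 to 3 TPM. The part of such markers in the differences was not tested. Xist, the RNA of the inactive X, was at 13.3 and 17.3 TPM in Abl.2 and 0.02 and 0 TPM in Abl.3, and the Y-linked Eif2s3y was listed at 0 in Abl.2 and at 17.8 and 18.3 TPM in Abl.3, as the labels say. The allelic counts on chromosome X came from the paternal copy in Abl.2 (median maternal share 0.00080 and 0.0010) and from the maternal copy in Abl.3 (0.999 and 1).

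Both clones held these surrogate light chain transcripts at high levels, and they differed in many other B-lineage genes and in many signalling and metabolic genes. Abl.2 held more transcript of 18 of 24 tested JAK-STAT genes, 19 of 27 interferon response genes and 10 of 19 NF-kB genes. The NF-kB count was 6 after centring each library on its median. Abl.2 also held more of Pax5, Rag1 and the TGF-beta genes Smad3 and Tgfb3, and of most called cholesterol genes. Abl.3 held more of the MHC class II genes H2-Ab1, H2-Aa, H2-Eb1 and H2-Oa and of the kinases Blk and Prkcb. It also held more of 13 of 22 tested glycolysis genes and of 16 of 21 tested genes of the amino acid response. In limma's moderated test with Benjamini-Hochberg adjustment over all 11003 genes, 4382 genes passed the threshold of 0.05, which is 39.8%. Of these 2847 (25.9% of all tested) were higher and 1535 (14%) lower in Abl.2. A larger number, 8073 genes or 73.4%, had libraries that did not overlap between the lines, and 1160 (10.5%) passed with a log2 difference of at least 1. All differences below are Abl.2 minus Abl.3 of log2(TPM + 1). For genes at low levels the added 1 TPM makes a difference smaller than the true log2 ratio. A gene is called when its adjusted p is under the threshold. The median difference of all genes was 0.099.

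The split by direction depended on the scaling. As deposited, 65% of the called genes were higher in Abl.2. After quantile normalisation the share was 51.4% of 4029 calls, after centring each library on its median 40.2% of 4407, and in edgeR on the summed allelic counts 50.7% of 4127. Leaving out Abl.2 replicate 1, Abl.2 replicate 2, Abl.3 replicate 1 or Abl.3 replicate 2 reduced the calls to 2541, 2466, 2811 and 2621. Counts given in this order below are called the leave-one-out counts. The fit then estimates the lone library's spread from the other lines.

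**Figure D1:**
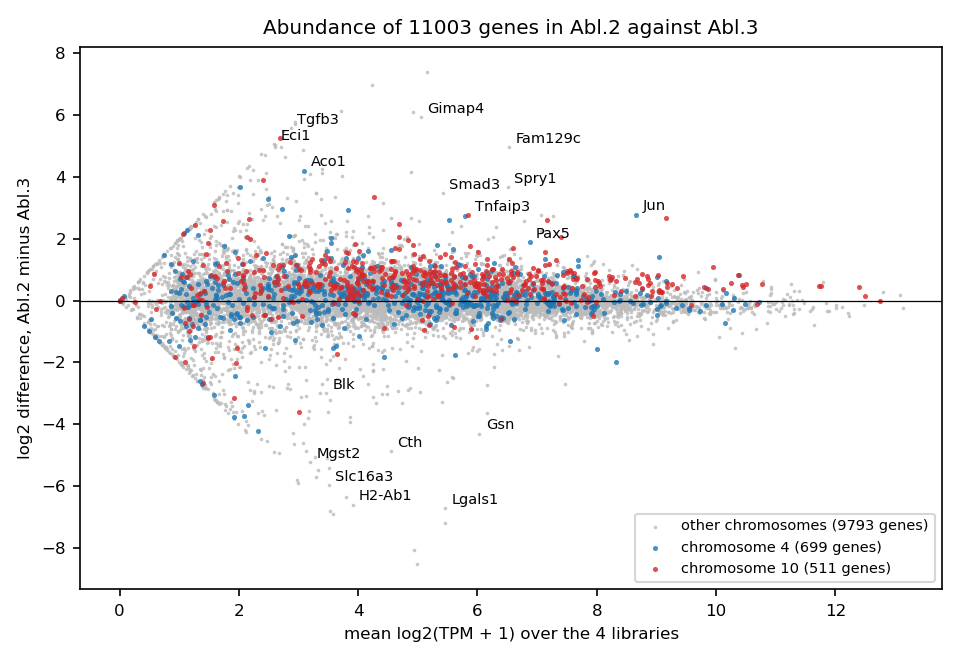
Log2 difference (Abl.2 minus Abl.3, log2(TPM + 1) scale) against the mean log2(TPM + 1) over the 4 libraries, 1 point per gene, for chromosome 4 (699 genes), chromosome 10 (511 genes) and the other chromosomes (9793 genes). The points of chromosome 10 lie mostly above 0, those of chromosome 4 spread like the rest, and labelled genes are among those described in the text.

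Chromosomes 4 and 10 were read apart because the allelic counts of Abl.2 are uneven there. On chromosome 10 the median difference was 0.59, 0.49 above that of all genes, and each Abl.2 library exceeded each Abl.3 library by a median of 0.59 to 0.62. The median ratio of TPM was 1.53 over the 407 genes of chromosome 10 with at least 5 TPM in both lines. Of its 511 genes 366 (71.6%) were called, 341 higher (66.7%) and 25 lower (4.89%) in Abl.2, and the libraries of 91.4% of the 511 did not overlap. The leave-one-out counts were 265, 266, 281 and 283. On chromosome 4 the median was 0.15, and 269 of 699 genes (38.5%) were called, 181 higher and 88 lower. The number higher was 118 of 270 calls after centring, 131 of 241 after quantile normalisation and 134 of 279 in edgeR. The libraries of 73.2% of the 699 did not overlap. Its leave-one-out counts were 156, 154, 180 and 161. The medians of the other autosomes lay between -0.07 on chromosome 17 and 0.20 on chromosome 16. Outside both chromosomes 3747 of 9793 genes (38.3%) were called, 2325 higher (23.7%) and 1422 lower (14.5%), with leave-one-out counts of 2120, 2046, 2350 and 2177, and 9.91% were called with a log2 difference of at least 1.

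The allele table, a separate readout of the same libraries, shows what each chromosome copy contributed. The maternal share of a gene is its maternal count over the counts of both alleles. On chromosome 4 the median share was 0.998 in both libraries of Abl.2 and 0.509 and 0.51 in Abl.3. Counts of an allele are given as allelic CPM, scaled to 1000000 allelic counts per library. The maternal CPM of its 527 genes was higher in Abl.2 by a median of 1.01 on the log2 scale, while the CPM of both alleles together differed by 0.038. The paternal copy was thus nearly absent from the counts of Abl.2, and the total stayed close to that of Abl.3. On chromosome 10 the median share was 0.339 and 0.337 in Abl.2 and 0.504 and 0.506 in Abl.3. Over its 415 genes the maternal CPM differed by a median of 0.0023 and the paternal CPM by 0.97, and the sum was 0.55 higher in Abl.2. On the autosomes Abl.3 departed from an even share by less, with medians of 0.447 on chromosome 1, 0.448 and 0.453 on chromosome 5, 0.549 and 0.548 on chromosome 17 and 0.453 on chromosome 18.

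**Figure D2:**
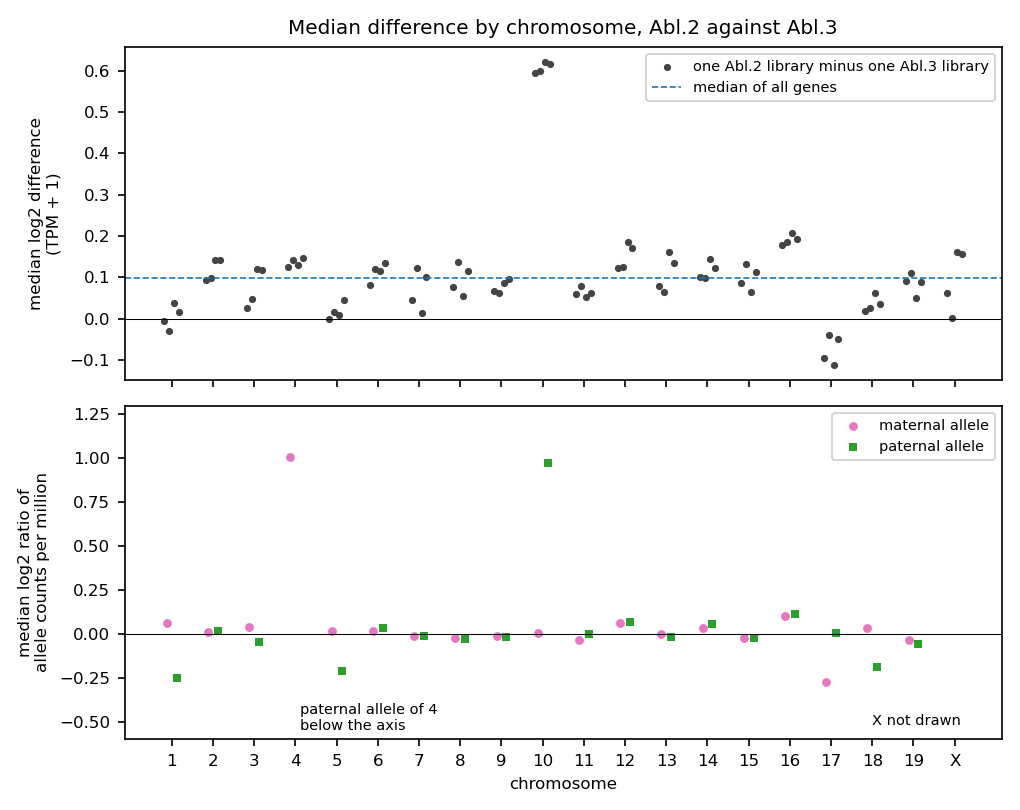
Upper panel: median log2 difference of the tested genes of each chromosome for each of the 4 pairs of an Abl.2 and an Abl.3 library, with the median of all genes as a dashed line. Lower panel: median log2 ratio, Abl.2 over Abl.3, of the allelic CPM of the maternal (circles) and paternal allele (squares). Chromosome 10 stands at 0.59 to 0.62 above and has a paternal value of 0.97, and chromosome 4 has a maternal value of 1.01 with its paternal value below the axis.

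Of 712 genes in the lists of B-lineage, signalling and metabolic genes, 632 passed the minimum of 1 TPM and 335 of these (53%) were called, 197 higher and 138 lower in Abl.2, beside 39.8% called, 25.9% higher and 14% lower among all genes. The counts of each list below stand beside these same shares. Genes said below to be separated, or not to overlap, between the lines stand beside 73.4% of all genes. The rule for naming genes required such separation. Outside chromosomes 4 and 10 the count was 292 of 556, beside 38.3%. On chromosome 4 it was 17 of 40, 12 of them higher, beside 38.5% called and 25.9% higher among all its genes. On chromosome 10 it was 26 of 36, 23 of them higher, beside 71.6% called and 66.7% higher. The called shares of the list members there, 42.5% and 72.2%, lay near those of the chromosomes. By class, 72 of 114 B-lineage genes were called (50 higher, median 0.25), 131 of 227 signalling genes (93 higher, median 0.28) and 134 of 294 metabolic genes (54 higher and 80 lower, median -0.093). After centring 32 B-lineage genes were higher and 36 lower, and in edgeR 32 and 38, so the balance of this class turned. Signalling genes were 71 higher and 53 lower after centring and 85 and 41 in edgeR, and metabolic genes 31 and 126 after centring and 34 and 101 in edgeR. The leave-one-out counts were 45, 44, 52 and 47 for B-lineage, 97, 92, 107 and 99 for signalling and 80, 78, 92 and 84 for metabolic genes.

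**Figure D3:**
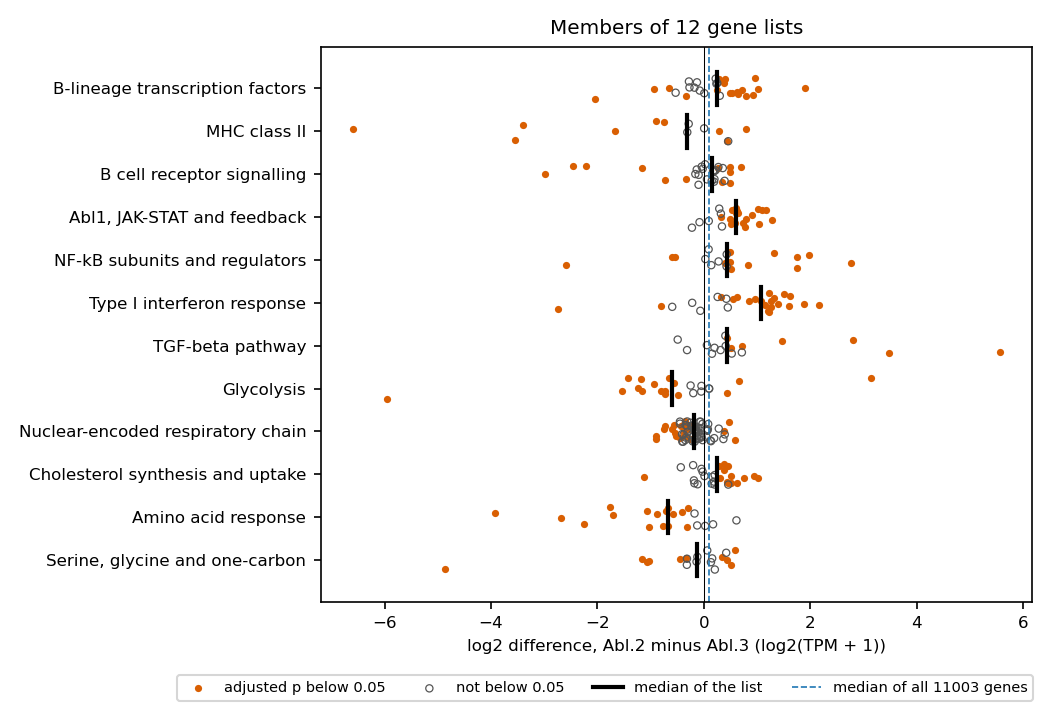
Log2 difference (Abl.2 minus Abl.3, log2(TPM + 1) scale) of every tested member of 12 gene lists, filled where called and open where not, with the median of each list as a bar and that of all 11003 genes as a dashed line. The medians of the interferon list (1.07) and of the JAK-STAT list (0.61) lie to the right, and those of glycolysis (-0.61) and of the amino acid response (-0.68) to the left.

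Among B-lineage transcription factors Pax5 was higher and Spib and Lef1 were lower in Abl.2. Pax5 (chromosome 4, 44524757 to 44710487), which commits cells to the B lineage, was at 246 and 207 TPM in Abl.2 and 56.2 and 63.95 TPM in Abl.3 (log2 difference 1.89, SE 0.11, adjusted p = 6.52e-05). Spib (chromosome 7, 44525993 to 44532071), an ETS factor of mature B cells, was at 8.86 and 7.95 TPM in Abl.2 and 40.9 and 34.8 TPM in Abl.3 (log2 difference -2.04, SE 0.12, adjusted p = 5.77e-05). The libraries of the lines did not overlap for either gene, and Abl.4 lay between them, at 156 and 165 TPM for Pax5 and 20.1 and 20.1 TPM for Spib. Erg, another ETS factor, was at 7.31 and 7.45 TPM in Abl.2 and 3.49 and 2.81 TPM in Abl.3 (log2 difference 1.02, SE 0.15, adjusted p = 0.00287), and Bcl6, a repressor of germinal centre cells, was at 3.11 and 3.18 TPM in Abl.2 and 1.21 and 1.04 TPM in Abl.3 (log2 difference 0.96, SE 0.17, adjusted p = 0.00552). Of 30 factors 29 were tested, and 14 were higher and 4 lower, against 10 and 9 after centring and 10 and 7 of 24 tested in edgeR. The called factors also included Tcf3 on chromosome 10 (log2 difference 0.79), which encodes the E proteins that start the B cell programme, the Ikaros gene Ikzf1 (0.71), Runx1 (0.64), Mef2c (0.53) and the quiescence factor Klf2 (-0.66). Ebf1, which acts upstream of Pax5, was at 179 and 171 TPM in Abl.2 and 152 and 137 TPM in Abl.3 (log2 difference 0.28, SE 0.079, adjusted p = 0.0333), a call that was lost without Abl.2 replicate 1, Abl.2 replicate 2 or Abl.3 replicate 2. Spi1 (93.9 and 92.4 TPM in Abl.2 and 126 and 101 TPM in Abl.3), Irf8 (212 and 202 TPM in Abl.2 and 251 and 218 TPM in Abl.3), Myb (161 and 159.6 TPM in Abl.2 and 172 and 166 TPM in Abl.3) and Ets1 (25.2 and 25.3 TPM in Abl.2 and 24.8 and 25.4 TPM in Abl.3) did not pass the test. The leave-one-out counts of the list were 11, 11, 16 and 11.

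Lef1, a Wnt-responsive factor of precursor B cells, was at 94.3 and 83.9 TPM in Abl.2 and 179 and 164 TPM in Abl.3 (log2 difference -0.94, SE 0.09, adjusted p = 0.000504), with no overlap. Its maternal share was 0.013 and 0.016 in Abl.2 and 0.48 and 0.48 in Abl.3. The paternal allele gave 405 and 351 CPM in Abl.2 against 409.7 and 387 CPM in Abl.3, while the maternal allele gave 5.29 and 5.69 CPM in Abl.2 against 378 and 352 CPM in Abl.3. The paternal values of the lines overlapped, and the maternal values of Abl.2 were the low ones.

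The pre-B cell receptor genes were abundant in both clones and differed little. Cd79a, one of the signalling chains of the receptor, was at 3098 and 2899 TPM in Abl.2 and 2514 and 2291 TPM in Abl.3 (log2 difference 0.32, SE 0.094, adjusted p = 0.0357), and Vpreb3, a chaperone gene on chromosome 10, was at 6143 and 6024 TPM in Abl.2 and 5599 and 5454 TPM in Abl.3 (adjusted p = 0.179). Of 6 genes 3 were called higher (Cd79a, Cd79b and Vpreb2), but the leave-one-out counts were 0, 0, 1 and 0, and the 3 genes were lower in Abl.2 in edgeR on the summed allelic counts. The differences of this list therefore have no stable direction.

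The 2 recombination-activating genes, which lie side by side on chromosome 2, differed in opposite directions. Rag1 (chromosome 2, 101638282 to 101649501) was at 21.96 and 24.6 TPM in Abl.2 and 4.39 and 5.34 TPM in Abl.3 (log2 difference 2.05, SE 0.16, adjusted p = 0.000236). Rag2 (chromosome 2, 101624718 to 101632529) was at 17.02 and 21.2 TPM in Abl.2 and 43.4 and 46.5 TPM in Abl.3 (log2 difference -1.20, SE 0.13, adjusted p = 0.000771). In both genes the lines did not overlap, and the higher line was Abl.2 for Rag1 and Abl.3 for Rag2. Abl.4 held 9.84 and 12.9 TPM of Rag1 and 23.6 and 26.3 TPM of Rag2, between the other lines in both. The spans of both genes overlap that of B230118H07Rik, which was higher in Abl.2 (log2 difference 1.20). Among the end-joining genes Polm, a DNA polymerase that fills coding ends, was lower in Abl.2 (30.3 and 25.5 TPM in Abl.2 and 62.8 and 67.9 TPM in Abl.3, log2 difference -1.20), and Xrcc5, which encodes the Ku80 end-binding protein, was higher (36.1 and 38.4 TPM in Abl.2 and 16.9 and 15.5 TPM in Abl.3, log2 difference 1.15). Of 15 genes of recombination and end joining 3 were higher and 3 lower, against 2 higher and 6 lower after centring on the library median.

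Surface markers of B cell stages were called in both directions, 12 higher and 6 lower of 24 tested, beside 25.9% higher and 14% lower among all genes, and 9 and 7 after centring. Ms4a1, the CD20 gene of later B cells, was at 0.18 and 0.12 TPM in Abl.2 and 6.19 and 6.09 TPM in Abl.3 (log2 difference -2.63, SE 0.17, adjusted p = 8.98e-05). Cd2, an adhesion receptor, was at 1.11 and 1.27 TPM in Abl.2 and 7.46 and 6.2 TPM in Abl.3 (log2 difference -1.83, SE 0.12, adjusted p = 9.06e-05), far below the 288 and 291 TPM of Abl.4. Cd93, a marker of immature B cells, was at 29.99 and 32.3 TPM in Abl.2 and 8.87 and 9.14 TPM in Abl.3 (log2 difference 1.68, SE 0.18, adjusted p = 0.0008). Each of the 3 genes was separated between the lines, as their naming required and as in 73.4% of all genes. Cd93 was the one that was higher in Abl.2. Cd52 on chromosome 4, a small surface glycoprotein, was at 859 and 855 TPM in Abl.2 and 304 and 349 TPM in Abl.3 (log2 difference 1.39), the costimulatory receptor Cd40 at 8.3 and 7.35 TPM in Abl.2 and 2.2 and 1.8 TPM in Abl.3 (log2 difference 1.56), and the IL-2 receptor chain Il2ra at 4.24 and 5.36 TPM in Abl.2 and 1.13 and 0.81 TPM in Abl.3 (log2 difference 1.56). Lower in Abl.2 were also Bst1 (70.4 and 61.8 TPM in Abl.2 and 162 and 146 TPM in Abl.3, log2 difference -1.21), an ectoenzyme of precursor cells, and Cd5 (1 and 1.41 TPM in Abl.2 and 6.03 and 5.07 TPM in Abl.3, log2 difference -1.57), a call lost without Abl.2 replicate 1 or Abl.3 replicate 1. Il7r, the receptor chain for the main growth cytokine of mouse pro-B cells, did not pass the test at 32.05 and 36.4 TPM in Abl.2 and 41.1 and 43.4 TPM in Abl.3. Kit, Cd9, Cd80 and the stem cell marker Cd34 were listed at 0.03 TPM or below in these 4 libraries and were not tested.

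MHC class II was the B-lineage group with the largest falls in Abl.2, carried by 4 genes of chromosome 17. H2-Ab1 (chromosome 17, 34263209 to 34269418), the beta chain of the I-A molecule, was at 0.37 and 0.71 TPM in Abl.2 and 160.0 and 134 TPM in Abl.3 (log2 difference -6.59, SE 0.14, adjusted p = 1.77e-06). H2-Aa, its alpha chain, was at 0 and 0.46 TPM in Abl.2 and 12.1 and 14.4 TPM in Abl.3 (log2 difference -3.56, SE 0.21, adjusted p = 6.22e-05), and H2-Eb1, the I-E beta chain, was at 0 and 0.12 TPM in Abl.2 and 9.78 and 10.7 TPM in Abl.3 (log2 difference -3.40, SE 0.16, adjusted p = 2.69e-05). Every Abl.3 library stood above every Abl.2 library, and Abl.4 sided with Abl.3, with 258 and 231 TPM of H2-Ab1. H2-Oa, a chain of the peptide-loading modulator DO, was at 10.2 and 11.4 TPM in Abl.2 and 38.8 and 34.6 TPM in Abl.3 (log2 difference -1.68, SE 0.11, adjusted p = 0.000114). Ciita, the transactivator of this locus, was low in both lines at 0.12 and 0.08 TPM in Abl.2 and 1.3 and 0.85 TPM in Abl.3 (log2 difference -0.91), and its call was lost without Abl.2 replicate 2 or Abl.3 replicate 1. Cd74, the invariant chain that escorts class II molecules, was not low in Abl.2, at 418 and 422 TPM in Abl.2 and 363 and 328 TPM in Abl.3 (log2 difference 0.28), a call lost without any 1 of the 4 libraries. Of 13 tested members 6 were lower and 3 higher, with leave-one-out counts of 5, 6, 5 and 6. After centring 7 were lower and 1 higher, and no higher call stayed without each library. The 4 genes H2-Ab1, H2-Aa, H2-Eb1 and H2-Oa stayed called without each library.

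The promoter of H2-Eb1 is shown because 3 of these 4 genes share a sequence element there. In the 250 bases before the RefSeq start (GRCm38.p6), the letters CTGATTGG, the Y box read by the factor NF-Y, were searched on both strands and are printed in capitals.
H2-Eb1 (chr17:34305617-34305866, plus strand): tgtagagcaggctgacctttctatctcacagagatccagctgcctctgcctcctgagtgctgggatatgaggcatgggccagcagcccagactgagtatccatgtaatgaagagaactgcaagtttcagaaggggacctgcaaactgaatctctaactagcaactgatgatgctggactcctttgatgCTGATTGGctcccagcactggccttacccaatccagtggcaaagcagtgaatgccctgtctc
The element begins 62 bases before the start. It was found in H2-Aa, H2-Eb1 and H2-Oa among the 9 tested members with a window. Since a gene can have several windows, shares are given per window, here 3 of the 10 windows of members against 3.83% of all 32851. H2-Aa and H2-Eb1 had the falls of -3.56 and -3.40 given above, and a match of letters describes the sequence only.

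MHC class I was abundant in both clones. H2-K1 was at 2273 and 2120.3 TPM in Abl.2 and 1824 and 1579 TPM in Abl.3, and H2-D1 was at 2487 and 2068 TPM in Abl.2 and 2392 and 2012 TPM in Abl.3, which did not pass the test (adjusted p = 0.796). Of 19 tested genes of class I and peptide loading 9 were called higher and 2 lower in Abl.2, and the balance was 5 against 5 after centring and 4 against 5 in edgeR. The peptide transporter gene Tap2 was at 198 and 186 TPM in Abl.2 and 132 and 117 TPM in Abl.3 (log2 difference 0.62, SE 0.096, adjusted p = 0.00334), the loading factor Tapbp at 356 and 328 TPM in Abl.2 and 225 and 209.8 TPM in Abl.3 (log2 difference 0.65), and Nlrc5, the transactivator of class I genes, at 30.7 and 30.5 TPM in Abl.2 and 19.3 and 19.3 TPM in Abl.3 (log2 difference 0.64). These 3 genes stayed called without each library, whereas the leave-one-out counts of the list were 5, 4, 5 and 5. The light chain B2m (log2 difference 0.63) and H2-K1 (log2 difference 0.37) were lower instead of higher in Abl.2 in edgeR on the summed allelic counts.

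The Gimap genes, a cluster of small GTPases of lymphocytes on chromosome 6, did not move as 1 block. Gimap4 (chromosome 6, 48684549 to 48692060) was at 242 and 278 TPM in Abl.2 and 3.52 and 3.03 TPM in Abl.3 (log2 difference 5.93, SE 0.10, adjusted p = 1.58e-06), a 79.4-fold difference of means, and both of its alleles were higher in Abl.2. Gimap3 was at 15.1 and 19.3 TPM in Abl.2 and 1.34 and 0.36 TPM in Abl.3 (log2 difference 3.34, SE 0.26, adjusted p = 0.00023). The neighbouring Gimap7 was lower, at 2.06 and 1.11 TPM in Abl.2 and 6.47 and 8.06 TPM in Abl.3 (log2 difference -1.69, SE 0.23, adjusted p = 0.00205). The lines did not overlap in any of the 3 genes, and Abl.4 was near Abl.2 for Gimap4, at 173 and 182 TPM. In all 6 of 8 genes were higher and 1 lower, and Gimap5 (1.02) and Gimap6 (0.78) changed much less than Gimap4.

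Genes of B cell receptor signalling were called about as often as all genes, and the larger differences were falls in Abl.2. Blk (chromosome 14, 63372836 to 63417037), a Src family kinase of B cells, was at 2.89 and 2.93 TPM in Abl.2 and 31.02 and 29.1 TPM in Abl.3 (log2 difference -2.99, SE 0.09, adjusted p = 5.78e-06). Prkcb (chromosome 7, 122288751 to 122634402), the protein kinase C that carries the signal to NF-kB, was at 18.4 and 20.2 TPM in Abl.2 and 113 and 108 TPM in Abl.3 (log2 difference -2.46, SE 0.083, adjusted p = 7.88e-06). Both genes were higher in each library of Abl.3 and of Abl.4, where Blk reached 194 and 182 TPM. The PI3-kinase adaptor Pik3ap1 was also lower (26.8 and 28.5 TPM in Abl.2 and 64.3 and 61.9 TPM in Abl.3, log2 difference -1.16, SE 0.094, adjusted p = 0.000253), as was the scaffold Bank1 (-0.72). Higher in Abl.2 were Syk (141 and 142 TPM in Abl.2 and 102 and 98.5 TPM in Abl.3, log2 difference 0.49), the adaptor Blnk (427 and 443 TPM in Abl.2 and 324 and 295 TPM in Abl.3, log2 difference 0.49), the lipid phosphatase Inpp5d (0.50) and, on chromosome 4, the PI3-kinase subunit Pik3cd (396 and 376 TPM in Abl.2 and 243 and 229.8 TPM in Abl.3, log2 difference 0.70). Of 29 tested genes 6 were higher and 6 lower, beside 39.8% called among all genes, and 4 and 9 after centring. Lyn, Btk and Vav1 were among the 17 that did not pass the test, with Btk at 99.9 and 111 TPM in Abl.2 and 101 and 101 TPM in Abl.3.

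Prkcb and Phlda3 show how a fall in total was divided between the alleles. For Prkcb the maternal allele gave 40.05 and 41.4 CPM in Abl.2 against 129.8 and 115 CPM in Abl.3, and the paternal allele gave 0 and 0.186 CPM in Abl.2 against 115 and 111 CPM in Abl.3. The paternal allele was thus at or near 0 in Abl.2 and the maternal allele was lower as well. Phlda3, a p53 target that restrains Akt, was at 7.27 and 5.46 TPM in Abl.2 and 40.3 and 36.7 TPM in Abl.3 (log2 difference -2.43, SE 0.15, adjusted p = 7.94e-05). Its maternal allele gave 0 and 0 CPM in Abl.2 against 23.1 and 25.3 CPM in Abl.3, and its paternal allele 14.1 and 10.01 CPM in Abl.2 against 50.02 and 65.2 CPM in Abl.3. The maternal allele thus had no count in Abl.2.

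JAK-STAT genes were higher in Abl.2 wherever they were called. Of 24 tested genes 18 were called, all higher in Abl.2, beside 25.9% higher among all genes. The balance was 16 to 0 after quantile normalisation, 15 to 0 after centring and 16 to 0 in edgeR, and 13 genes stayed called without each library. Cish (chromosome 9, 107296026 to 107302784), a STAT5-induced inhibitor of cytokine receptors, was at 398 and 370.2 TPM in Abl.2 and 166 and 149 TPM in Abl.3 (log2 difference 1.28, SE 0.083, adjusted p = 9.32e-05). Socs2 (chromosome 10, 95385362 to 95417180), another induced inhibitor, was at 1408 and 1476 TPM in Abl.2 and 672 and 674 TPM in Abl.3 (log2 difference 1.10, SE 0.069, adjusted p = 8.22e-05). Stat6 (chromosome 10, 127642986 to 127660957), which mediates IL-4 signals, was at 209.5 and 206 TPM in Abl.2 and 96.5 and 88.1 TPM in Abl.3 (log2 difference 1.16, SE 0.081, adjusted p = 0.000126), and Pim3, a survival kinase gene, was at 54.2 and 43.2 TPM in Abl.2 and 25.7 and 20.6 TPM in Abl.3 (log2 difference 1.04, SE 0.17, adjusted p = 0.00449). Abl.2 exceeded Abl.3 in each library of these genes. Socs2, Stat6, Stat2 and Bcr lie on chromosome 10. Relative to the median of that chromosome their differences were 0.51, 0.58, 0.42 and -0.11, so Bcr lay below it. The span of Stat6 overlaps that of Nab2, which was also higher (log2 difference 1.80). Among the 19 members on neither chromosome 13 were higher. The kinases Jak2 (20.5 and 20.9 TPM in Abl.2 and 11.1 and 12.3 TPM in Abl.3, log2 difference 0.77) and Jak3 (111 and 101 TPM in Abl.2 and 68.96 and 65.01 TPM in Abl.3, log2 difference 0.65) were among them, as were Stat5a (0.62), Stat5b (0.58), Stat4 (0.73) and the shared cytokine receptor chain Il2rg (0.80). Jak1 on chromosome 4 was at 234 and 237 TPM in Abl.2 and 125 and 125 TPM in Abl.3 (log2 difference 0.91, SE 0.071, adjusted p = 0.000225), with a maternal share of 1.00 and 1.00 in Abl.2 and 0.46 and 0.48 in Abl.3. Abl1, the Abelson tyrosine kinase gene, was at 1279 and 1185 TPM in Abl.2 and 1022 and 959.8 TPM in Abl.3 (log2 difference 0.31, SE 0.083, adjusted p = 0.0249), a call lost without any 1 of the 4 libraries. Pim1, Socs1 and Stat3 did not pass the test.

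The interferon list had the largest median of the 30 lists of B-lineage, signalling and metabolic genes, 1.07. Irf7 (chromosome 7, 141262706 to 141266481), the regulator that amplifies type I interferon, was at 25.4 and 25.5 TPM in Abl.2 and 5.22 and 4.63 TPM in Abl.3 (log2 difference 2.16, SE 0.14, adjusted p = 0.000109). Ifit1, which binds foreign RNA, was at 3.77 and 4.07 TPM in Abl.2 and 0.45 and 0.23 TPM in Abl.3 (log2 difference 1.88, SE 0.19, adjusted p = 0.00057). Its relative Ifit3 was at 8.76 and 10.4 TPM in Abl.2 and 2.94 and 2.03 TPM in Abl.3 (log2 difference 1.61, SE 0.20, adjusted p = 0.00135). All 3 were higher in each Abl.2 library than in any library of Abl.3 or Abl.4. Irf1 was the most abundant called member, at 576 and 575 TPM in Abl.2 and 269 and 247 TPM in Abl.3 (log2 difference 1.16, SE 0.079, adjusted p = 0.000121). Further members higher in Abl.2 were Irf9 (0.96), Usp18 (1.20), Mx2 (1.39), Oas1a (1.60), the RNA sensor genes Ifih1 (1.22) and, on chromosome 4, Ddx58 (1.07), and Isg15 (1.31), also on chromosome 4. Bst2 (chromosome 8, 71534255 to 71537456), which tethers virus particles, went the other way, at 28.3 and 25.3 TPM in Abl.2 and 186 and 181 TPM in Abl.3 (log2 difference -2.73, SE 0.10, adjusted p = 1.2e-05), and was separated in every library. Of 34 members 27 were tested, and 19 were higher and 2 lower, beside 25.9% and 14% among all genes, and 17 higher calls stayed without each library. The receptor gene Ifnar1 was higher (0.54) and Ifnar2 did not pass the test. The other members, among them Rsad2, Ifi44 and Mx1, were below the mean of 1 TPM and were not tested.

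The promoter of Ifit3 is shown because it carries 3 copies of the letters GAAANNGAA, a core of the interferon-stimulated response element, in the 250 bases before its RefSeq start (both strands searched, copies in capitals, here on the opposite strand).
Ifit3 (chr19:34583279-34583528, plus strand): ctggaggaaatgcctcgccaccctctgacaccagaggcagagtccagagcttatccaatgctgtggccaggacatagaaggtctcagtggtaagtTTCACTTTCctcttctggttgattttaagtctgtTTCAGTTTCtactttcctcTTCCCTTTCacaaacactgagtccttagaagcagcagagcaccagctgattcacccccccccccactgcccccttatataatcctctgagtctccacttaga
The copies begin 155, 121 and 102 bases before the start. Among the 20 tested members with a window 7 held the letters (Ifit1, Ifit3, Isg15, Oas1a, Ifih1, Bst2 and Trim30a), in 7 of 26 windows of members against 7.13% of all 32851 windows. The first 5 were higher in Abl.2, Bst2 was lower and Trim30a did not pass the test.

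Several NF-kB subunits were higher in Abl.2. Relb (chromosome 7, 19606217 to 19629438) was at 53.7 and 51.8 TPM in Abl.2 and 13.7 and 11.7 TPM in Abl.3 (log2 difference 1.97, SE 0.11, adjusted p = 4.41e-05). Nfkb2 (chromosome 19, 46304737 to 46312090), whose product pairs with it in the alternative pathway, was at 50.6 and 44.8 TPM in Abl.2 and 14.96 and 12.2 TPM in Abl.3 (log2 difference 1.75, SE 0.13, adjusted p = 0.000149). Tnfaip3 (chromosome 10, 19000910 to 19015657), the A20 enzyme that shuts the pathway off, was at 152 and 147 TPM in Abl.2 and 20.6 and 21.6 TPM in Abl.3 (log2 difference 2.77, SE 0.085, adjusted p = 5.87e-06). The Abl.2 libraries were above all others in these 3 genes, with Abl.4 close to Abl.3. Rel was at 14.3 and 14.9 TPM in Abl.2 and 3.31 and 4.05 TPM in Abl.3 (log2 difference 1.74) and the nuclear regulator Nfkbiz at 23.2 and 23.2 TPM in Abl.2 and 9.3 and 8.16 TPM in Abl.3 (log2 difference 1.32). Among the inhibitors Nfkbie was higher (27.1 and 28.1 TPM in Abl.2 and 21.5 and 17.4 TPM in Abl.3, log2 difference 0.49), a call lost without Abl.2 replicate 1, Abl.2 replicate 2 or Abl.3 replicate 2, and Nfkbib did not pass the test (0.28). Nfkbia was lower, at 159.9 and 142 TPM in Abl.2 and 226 and 213 TPM in Abl.3 (log2 difference -0.54), a call lost without any 1 of the 4 libraries, and Nfkbid was lower, at 12.2 and 11.8 TPM in Abl.2 and 18.4 and 19.1 TPM in Abl.3 (log2 difference -0.60). Bcl3, a nuclear co-factor, differed between the Abl.3 libraries themselves, at 0.29 and 0.3 TPM in Abl.2 and 13.04 and 3.39 TPM in Abl.3 (log2 difference -2.60, SE 0.50, adjusted p = 0.00763), and its call was lost without Abl.2 replicate 1 or Abl.2 replicate 2. Map3k14, the NF-kB-inducing kinase of the alternative pathway, was at 9.51 and 8.77 TPM in Abl.2 and 6.07 and 3.6 TPM in Abl.3 (log2 difference 0.83), a call lost without Abl.2 replicate 1, Abl.2 replicate 2 or Abl.3 replicate 2. The IKK complex genes Chuk, Ikbkb and Ikbkg did not pass the test, with Ikbkb at 71.7 and 72.6 TPM in Abl.2 and 70.7 and 70.8 TPM in Abl.3. Of 19 tested members 10 were higher and 3 lower, and the leave-one-out counts were 7, 7, 13 and 9. The number higher was 7 after quantile normalisation and 6 after centring.

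The promoters of Nfkb2 and Tnfaip3 are shown because both genes were higher in Abl.2 and both hold the letters GGGANTTCC, a core of the NF-kB site, just before their RefSeq starts (both strands searched). Matches are in capitals. In Nfkb2 a match on each strand overlaps the other, and in Tnfaip3 the match is on the opposite strand.
Nfkb2 (chr19:46304487-46304736, plus strand): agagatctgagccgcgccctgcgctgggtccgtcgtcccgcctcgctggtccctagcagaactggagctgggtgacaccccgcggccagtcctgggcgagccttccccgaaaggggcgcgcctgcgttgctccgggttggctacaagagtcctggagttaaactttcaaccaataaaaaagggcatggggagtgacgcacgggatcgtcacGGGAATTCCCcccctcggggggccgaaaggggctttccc
Tnfaip3 (chr10:19015411-19015660, minus strand): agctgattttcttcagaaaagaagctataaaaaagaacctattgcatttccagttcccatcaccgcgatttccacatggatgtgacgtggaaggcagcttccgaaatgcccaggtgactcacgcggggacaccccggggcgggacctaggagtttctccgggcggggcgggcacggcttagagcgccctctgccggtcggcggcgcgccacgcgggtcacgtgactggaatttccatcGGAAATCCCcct
The matches begin 39 and 38 bases before the start of Nfkb2 and 12 before that of Tnfaip3, and the RefSeq start of Tnfaip3 is 247 bases from the start in the deposited tables. The letters were found in 5 of the 15 tested members with a window (Nfkb2, Rel, Nfkbid, Tnfaip3 and Traf3), in 5 of the 23 windows of members against 1.43% of all windows. Of these 5 genes 4 were called higher and Nfkbid was called lower, and the call of Traf3 was lost without Abl.2 replicate 1, Abl.2 replicate 2 or Abl.3 replicate 2.

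Among Toll-like receptor genes the share of calls was near that of all genes. The inhibitory kinase relative Irak3 on chromosome 10 was at 27.5 and 28.9 TPM in Abl.2 and 7.29 and 7.02 TPM in Abl.3 (log2 difference 1.84, SE 0.10, adjusted p = 5.05e-05), 1.25 above the median of its chromosome. Of 14 tested members, beside 39.8% called among all genes, 4 were higher and 1 lower (Cd180, log2 difference -0.73), but 1 was higher and 3 lower after centring, and the leave-one-out counts were 2, 1, 1 and 2. Tlr4 was at 8.72 and 8.47 TPM in Abl.2 and 6.64 and 8.12 TPM in Abl.3 and did not pass the test.

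In the TGF-beta pathway the ligand gene Tgfb3 and the receptor-regulated factor Smad3 separated the clones. Tgfb3 (chromosome 12, 86056745 to 86079041) was at 49.2 and 49.05 TPM in Abl.2 and 0.06 and 0.07 TPM in Abl.3 (log2 difference 5.56, SE 0.095, adjusted p = 1.58e-06), against 246 and 225 TPM in Abl.4. Smad3 (chromosome 9, 63646767 to 63757994) was at 146 and 138 TPM in Abl.2 and 13.2 and 10.6 TPM in Abl.3 (log2 difference 3.47, SE 0.12, adjusted p = 7.88e-06), while Abl.4 was near Abl.3 at 16.8 and 16.2 TPM. Bmpr2, a BMP receptor gene, was at 6.94 and 6.33 TPM in Abl.2 and 0.04 and 0.15 TPM in Abl.3 (log2 difference 2.80, SE 0.18, adjusted p = 9.06e-05). Each was higher in both libraries of Abl.2 with no overlap. The receptor gene Tgfbr2 (52.05 and 52.9 TPM in Abl.2 and 32.2 and 31.3 TPM in Abl.3, log2 difference 0.71) and, on chromosome 4, the repressor Ski (10.2 and 13.8 TPM in Abl.2 and 3.76 and 3.5 TPM in Abl.3, log2 difference 1.48) were also higher, whereas Smad2, Smad4 and Tgfb1 did not pass the test. Of 17 tested members 7 were higher and none lower by limma, a share of calls near the 39.8% of all genes, and 2 were lower after quantile normalisation. The maternal allele carried the difference of Smad3. The maternal allele gave 1218 and 1157 CPM in Abl.2 against 62.1 and 59.6 CPM in Abl.3, and the paternal allele gave 66.7 and 65.8 CPM in Abl.2 against 82.3 and 63.99 CPM in Abl.3.

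Ras-MAPK feedback genes divided by gene. Spry1 (chromosome 3, 37639947 to 37644598), an inhibitor of the pathway, was at 346 and 307 TPM in Abl.2 and 25.8 and 23.4 TPM in Abl.3 (log2 difference 3.67, SE 0.11, adjusted p = 5.78e-06), and its relative Spry4 was lower, at 11.98 and 11.02 TPM in Abl.2 and 27.3 and 25.6 TPM in Abl.3 (log2 difference -1.14). Jun (chromosome 4, 95049034 to 95052222), an AP-1 subunit on chromosome 4, was at 1204 and 925 TPM in Abl.2 and 169 and 139 TPM in Abl.3 (log2 difference 2.78, SE 0.16, adjusted p = 5.53e-05). The inhibitors Spred1 (46.1 and 53.1 TPM in Abl.2 and 16.01 and 17.6 TPM in Abl.3, log2 difference 1.50, SE 0.12, adjusted p = 0.000258) and Spred2 (26.7 and 24.98 TPM in Abl.2 and 9.83 and 11.04 TPM in Abl.3, log2 difference 1.23, SE 0.10, adjusted p = 0.000311) were higher too. The lines did not overlap in these 5 genes, and Abl.4 resembled Abl.3 for Spry1 (34.8 and 29.9 TPM). Egr1, an early response gene, was lower in Abl.2 (148 and 132 TPM in Abl.2 and 273 and 245 TPM in Abl.3, log2 difference -0.88), and the Erk phosphatase Dusp6 on chromosome 10 was lower (-0.50), a call lost without any 1 of the 4 libraries. The kinase gene Mapk3 did not pass the test. Of 25 tested members 9 were higher and 3 lower, against 8 and 7 after centring and 8 and 5 of 22 tested in edgeR. As for Smad3, the difference of Spry1 lay in the maternal allele, with 603 and 571 CPM in Abl.2 against 26.7 and 26.9 CPM in Abl.3, while the paternal allele gave 27.3 and 29.6 CPM in Abl.2 against 24.7 and 21.7 CPM in Abl.3.

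**Figure D4:**
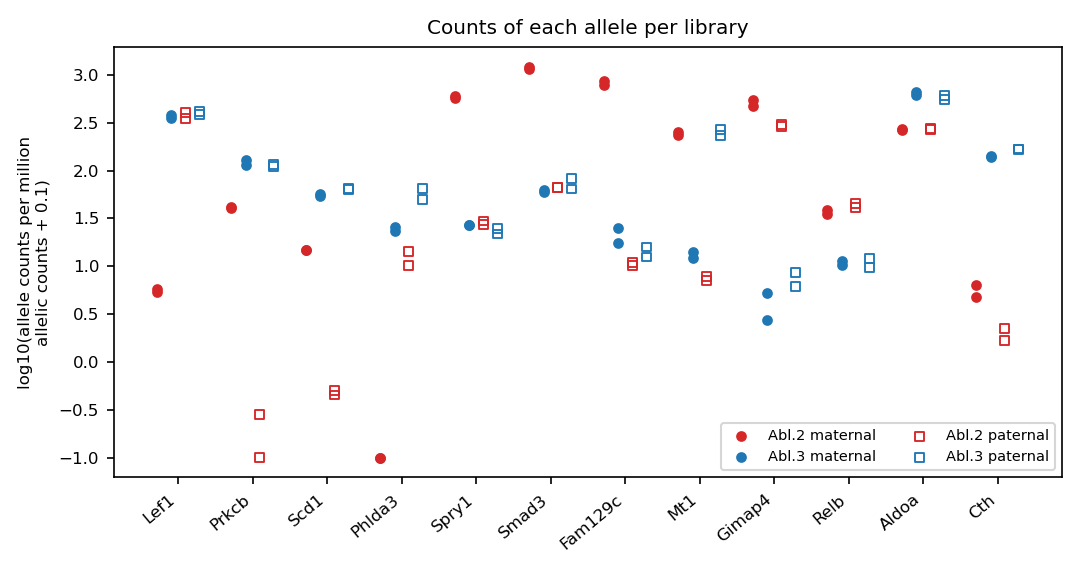
Values of the maternal (filled circles) and paternal allele (open squares) of 12 genes in allelic CPM, shown as log10(value + 0.1), 1 point per library, for Abl.2 (red) and Abl.3 (blue). Smad3, Spry1 and Fam129c differ mainly in the maternal allele, Lef1 differs in the maternal allele in the other direction, Gimap4, Relb, Aldoa and Cth differ in both alleles, and Mt1 has opposite main alleles in the lines.

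Of the Wnt pathway genes more were called higher than lower in Abl.2. Dvl3, a signal transducer, was at 37.2 and 33.1 TPM in Abl.2 and 18.03 and 15.1 TPM in Abl.3 (log2 difference 1.05, SE 0.12, adjusted p = 0.00105). The receptor Fzd7 was at 2.12 and 1.97 TPM in Abl.2 and 0.34 and 0.36 TPM in Abl.3 (log2 difference 1.17, SE 0.17, adjusted p = 0.00252). Fzd9, another receptor, was lower, at 2.31 and 1.81 TPM in Abl.2 and 8.75 and 6.64 TPM in Abl.3 (log2 difference -1.50, SE 0.21, adjusted p = 0.00247). The 3 genes were separated, and of the ligand genes Wnt10a was higher (155 and 119 TPM in Abl.2 and 72.4 and 62.7 TPM in Abl.3, log2 difference 1.00). Of 15 tested members 9 were higher and 2 lower, against 5 and 2 after centring and 6 and 2 after quantile normalisation, with leave-one-out counts of 7, 5, 7 and 7. The target Axin2 and the inhibitor Dkk1 were listed at 0 in these 4 libraries.

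Homing receptors differed in both directions, and those with the largest differences were lower in Abl.2. Ccr7 (chromosome 11, 99144196 to 99155077), which guides lymphocytes to lymph nodes, was at 0.61 and 0.43 TPM in Abl.2 and 13.4 and 13.5 TPM in Abl.3 (log2 difference -3.25, SE 0.12, adjusted p = 1.24e-05). Itgal, the alpha chain of the integrin LFA-1, was at 1.52 and 1.82 TPM in Abl.2 and 19.4 and 17.6 TPM in Abl.3 (log2 difference -2.87, SE 0.13, adjusted p = 2.59e-05). Itgb2 on chromosome 10, its beta chain, was at 25.4 and 22.2 TPM in Abl.2 and 49.02 and 44.1 TPM in Abl.3 (log2 difference -0.94, SE 0.13, adjusted p = 0.00216). Abl.3 was above Abl.2 in every library of the 3 genes. Higher in Abl.2 were the orphan receptor P2ry10 (8.19 and 9.63 TPM in Abl.2 and 2.06 and 2.74 TPM in Abl.3, log2 difference 1.55, SE 0.16, adjusted p = 0.000704) on X and, on chromosome 10, S1pr4 (112 and 98.1 TPM in Abl.2 and 50.9 and 43 TPM in Abl.3, log2 difference 1.15, SE 0.11, adjusted p = 0.000587). Relative to its chromosome S1pr4 was at 0.56. Cxcr4, which holds precursors in the bone marrow, was at 207 and 211 TPM in Abl.2 and 166 and 165 TPM in Abl.3 (log2 difference 0.34), a call lost without any 1 of the 4 libraries. Of 14 tested members 4 were higher and 6 lower.

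Among cell cycle genes the D cyclins Ccnd2 and Ccnd3 and several inhibitors were lower in Abl.2. Ccnd3, the main D cyclin of precursor B cells, was at 1018 and 899 TPM in Abl.2 and 2116 and 1859 TPM in Abl.3 (log2 difference -1.05, SE 0.10, adjusted p = 0.000525). Ccnd2 was at 89.1 and 88.9 TPM in Abl.2 and 145 and 144 TPM in Abl.3 (log2 difference -0.69). The inhibitors Cdkn2c on chromosome 4 (60.7 and 56.5 TPM in Abl.2 and 147 and 145 TPM in Abl.3, log2 difference -1.30, SE 0.087, adjusted p = 0.000109), Cdkn2d (120.2 and 114 TPM in Abl.2 and 272 and 244 TPM in Abl.3, log2 difference -1.13, SE 0.083, adjusted p = 0.000158) and Cdkn1a (177 and 161 TPM in Abl.2 and 332 and 358 TPM in Abl.3, log2 difference -1.03) were lower as well. None of these genes overlapped between the lines. The partner kinases Cdk4 on chromosome 10 (1037 and 1029.6 TPM in Abl.2 and 764 and 759.6 TPM in Abl.3, log2 difference 0.44, -0.15 relative to its chromosome) and Cdk6 (0.47, a call lost without Abl.2 replicate 2) were higher, as were Mdm2 (0.88) and Sesn1 (0.84) of chromosome 10. Relative to the chromosome Mdm2 was at 0.29 and Sesn1 at 0.25. Myc was at 602 and 541 TPM in Abl.2 and 475 and 446 TPM in Abl.3 and did not pass the test (adjusted p = 0.0713), nor did Cdkn2a, the Ink4a-Arf gene of chromosome 4, at 9.34 and 8.56 TPM in Abl.2 and 9.6 and 10.4 TPM in Abl.3. Of 31 members 6 were higher and 10 lower. In the BCL2 family the p53-induced death genes Pmaip1 (0.27 and 0.55 TPM in Abl.2 and 3.59 and 4.62 TPM in Abl.3, log2 difference -1.86, SE 0.23, adjusted p = 0.00152) and Bbc3 (17.3 and 13.8 TPM in Abl.2 and 25.8 and 27.3 TPM in Abl.3, log2 difference -0.74) were lower, and Bok, a BAX relative, was higher (12.8 and 12.03 TPM in Abl.2 and 3.03 and 2.99 TPM in Abl.3, log2 difference 1.74, SE 0.12, adjusted p = 0.000128). Of the survival genes Mcl1 did not pass the test, and Bcl2 was low in both lines at 2.19 and 1.46 TPM in Abl.2 and 3.52 and 3.29 TPM in Abl.3 (log2 difference -0.65). Of 12 tested members 1 was higher and 5 lower, with leave-one-out counts of 3, 2, 2 and 3, and only Pmaip1 and Bok stayed called without each library.

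Of the tested glycolysis genes 13 were lower and 3 higher in Abl.2. Aldoa (chromosome 7, 126795234 to 126800751), aldolase, was at 759 and 735 TPM in Abl.2 and 2255 and 2107 TPM in Abl.3 (log2 difference -1.54, SE 0.08, adjusted p = 3.91e-05). Pgk1 (chromosome X, 106187100 to 106203699), phosphoglycerate kinase, was at 294 and 303 TPM in Abl.2 and 814 and 786 TPM in Abl.3 (log2 difference -1.42, SE 0.066, adjusted p = 2.59e-05). Triose phosphate isomerase (Tpi1) was at 700.4 and 709 TPM in Abl.2 and 1637 and 1577 TPM in Abl.3 (log2 difference -1.19, SE 0.072, adjusted p = 7.1e-05). Abl.4 stood near Abl.3 in all 3 genes, for example at 2299 and 2107 TPM of Aldoa, and Abl.2 alone was low. The largest difference was in Slc16a3 (chromosome 11, 120948480 to 120960868), which exports lactate, at 0.17 and 0.78 TPM in Abl.2 and 93.6 and 83.5 TPM in Abl.3 (log2 difference -5.95, SE 0.21, adjusted p = 8.16e-06). At the entry of the pathway the glucose carrier Slc2a1 on chromosome 4 was at 55.4 and 55.4 TPM in Abl.2 and 91.1 and 92.9 TPM in Abl.3 (log2 difference -0.72). The hexokinase gene Hk2 was at 3.08 and 2.58 TPM in Abl.2 and 7.63 and 7.53 TPM in Abl.3 (log2 difference -1.17). The more abundant hexokinase gene Hk1 on chromosome 10 was higher, at 38.04 and 38.5 TPM in Abl.2 and 26.6 and 21.1 TPM in Abl.3 (log2 difference 0.67), a call lost without Abl.2 replicate 1, Abl.2 replicate 2 or Abl.3 replicate 2. At the end of the pathway Ldha, lactate dehydrogenase, was at 2465 and 2371 TPM in Abl.2 and 4463 and 3973 TPM in Abl.3 (log2 difference -0.80). Phosphofructokinase differed by isoform, with Pfkp lower (-1.25) and Pfkl on chromosome 10 not passing the test. Eno1 on chromosome 4 did not differ beyond its error either, at 1684 and 1640.0 TPM in Abl.2 and 1719 and 1723 TPM in Abl.3 (log2 difference -0.051, SE 0.079, adjusted p = 0.647), with a maternal share of 1.00 and 1.00 in Abl.2 and 0.53 and 0.53 in Abl.3. The 13 lower genes were among 22 tested, beside 14% lower among all genes. The counts of lower genes were 13 after quantile normalisation, 14 after centring and 10 of 19 tested in edgeR, and 11 lower calls stayed without each library, with that of Pkm, pyruvate kinase, lost without Abl.2 replicate 2. Gapdh, at 4014 and 4059.6 TPM in Abl.2 and 5899 and 5419 TPM in Abl.3, was lower in TPM and higher in edgeR on the summed allelic counts. Of the other higher genes Pfkfb3 lost its call without any 1 of the 4 libraries, and Pdk2, which inhibits pyruvate dehydrogenase and is no glycolytic enzyme, was at 11.7 and 9.95 TPM in Abl.2 and 0.6 and 0.11 TPM in Abl.3 (log2 difference 3.14, SE 0.32, adjusted p = 0.000634).

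The promoters of Slc16a3 and Pgk1 are shown because both genes fell and each window holds 2 copies of the letters GACGTG, a form of the hypoxia response element (capitals, both strands searched).
Slc16a3 (chr11:120948817-120949066, plus strand): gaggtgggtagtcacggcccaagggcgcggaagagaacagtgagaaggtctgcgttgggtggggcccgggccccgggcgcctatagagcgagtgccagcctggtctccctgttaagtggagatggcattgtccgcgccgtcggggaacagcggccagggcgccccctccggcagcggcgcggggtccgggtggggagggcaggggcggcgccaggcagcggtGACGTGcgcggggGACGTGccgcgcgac
Pgk1 (chrX:106186850-106187099, plus strand): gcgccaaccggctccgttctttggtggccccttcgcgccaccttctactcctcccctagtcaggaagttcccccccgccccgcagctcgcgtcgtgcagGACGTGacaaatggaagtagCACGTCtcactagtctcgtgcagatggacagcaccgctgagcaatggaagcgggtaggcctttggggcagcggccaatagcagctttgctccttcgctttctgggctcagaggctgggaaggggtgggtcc
The copies begin 28 and 15 bases before the RefSeq start of Slc16a3, which is 587 bases from the start in the deposited tables, and 151 and 131 bases before that of Pgk1. Of 22 tested members 8 held the letters (Slc2a1, Hk2, Pfkfb3, Aldoa, Pgk1, Pkm, Ldha and Slc16a3), in 9 of the 35 windows of members against 5.2% of all windows. Of these 8 genes 7 were called lower and Pfkfb3 was called higher, and the call of Pkm was lost without Abl.2 replicate 2.

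Amino acid response genes were lower in Abl.2 without exception among the calls. Slc7a3 (chromosome X, 101079210 to 101086020), a carrier of basic amino acids on X, was at 2.81 and 2.69 TPM in Abl.2 and 56.5 and 55.5 TPM in Abl.3 (log2 difference -3.93, SE 0.096, adjusted p = 2.48e-06). Atf5, a stress factor under Atf4, was at 1.85 and 1.7 TPM in Abl.2 and 16.97 and 16.9 TPM in Abl.3 (log2 difference -2.69, SE 0.15, adjusted p = 4.77e-05), and the stress regulator Nupr1 was at 7.65 and 7.88 TPM in Abl.2 and 39.2 and 41.99 TPM in Abl.3 (log2 difference -2.25, SE 0.099, adjusted p = 2.06e-05). Abl.3 was the highest of the lines in these 3 genes, with Abl.4 between. Asparagine synthetase (Asns) was at 336 and 343 TPM in Abl.2 and 715 and 718 TPM in Abl.3 (log2 difference -1.08), the pseudokinase Trib3 at 44.2 and 39.2 TPM in Abl.2 and 151 and 128 TPM in Abl.3 (log2 difference -1.72), and Sesn2 on chromosome 4, which restrains mTORC1, at 27.2 and 24.1 TPM in Abl.2 and 95.6 and 83.7 TPM in Abl.3 (log2 difference -1.77, SE 0.11, adjusted p = 8.52e-05). The subunits of the large neutral amino acid carrier, Slc7a5 (388 and 359.9 TPM in Abl.2 and 658 and 574 TPM in Abl.3, log2 difference -0.72) and Slc3a2 (315 and 303 TPM in Abl.2 and 521 and 473 TPM in Abl.3, log2 difference -0.68), were lower together. Of 21 tested members 16 were lower and none higher by limma, and 16, 18 and, in edgeR, 14 of 20 were lower under quantile normalisation, centring and summed allelic counts, with none higher. Without each library 10 stayed called, and the leave-one-out counts were 13, 11, 11 and 12. Atf4 itself was at 400.2 and 395 TPM in Abl.2 and 431 and 437 TPM in Abl.3 and Ddit3 on chromosome 10 at 219 and 212 TPM in Abl.2 and 220.3 and 203 TPM in Abl.3, and neither passed the test.

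The promoter of Asns is shown because it is a textbook target of Atf4 and holds the letters TGATGNAA, the core of the amino acid response element, in capitals.
Asns (chr6:7693210-7693459, minus strand): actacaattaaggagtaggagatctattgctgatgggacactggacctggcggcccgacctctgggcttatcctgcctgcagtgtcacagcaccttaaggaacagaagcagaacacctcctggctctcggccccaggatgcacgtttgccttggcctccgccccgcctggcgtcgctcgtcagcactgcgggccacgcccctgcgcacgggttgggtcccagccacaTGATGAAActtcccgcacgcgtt
The element begins 23 bases before the RefSeq start. The letters were found in 4 of the 17 tested members with a window (Chac1, Asns, Nupr1 and Got1), which were called lower. These were 4 of the 19 windows of members, against 3.45% of all windows on either strand. The call of Chac1 was lost without Abl.2 replicate 2, Abl.3 replicate 1 or Abl.3 replicate 2.

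Of the serine and one-carbon genes, those with the largest differences were lower in Abl.2. Cth (chromosome 3, 157894248 to 157925077), which makes cysteine from cystathionine, was at 3.08 and 3.63 TPM in Abl.2 and 127 and 122 TPM in Abl.3 (log2 difference -4.85, SE 0.11, adjusted p = 1.84e-06), a 37.2-fold higher mean in Abl.3, and both alleles were lower in Abl.2. Psph, the last enzyme of serine synthesis, was at 26.1 and 26.1 TPM in Abl.2 and 57.7 and 61.1 TPM in Abl.3 (log2 difference -1.16, SE 0.079, adjusted p = 0.000117), and Mthfd2, a mitochondrial folate enzyme, was at 109 and 109 TPM in Abl.2 and 218 and 229 TPM in Abl.3 (log2 difference -1.03, SE 0.078, adjusted p = 0.000182). Tyms, thymidylate synthase, was at 233 and 259 TPM in Abl.2 and 489 and 551 TPM in Abl.3 (log2 difference -1.07, SE 0.096, adjusted p = 0.000386). These 4 genes were separated between the lines, as their naming required and as in 73.4% of all genes, all with Abl.2 low. Phgdh, the first enzyme of serine synthesis, did not pass the test at 745 and 694 TPM in Abl.2 and 942 and 856 TPM in Abl.3, nor did Shmt2 on chromosome 10. Of 19 tested members 4 were higher and 6 lower, against 1 and 8 after centring and 2 and 11 of 18 tested in edgeR, with leave-one-out counts of 5, 5, 7 and 6, and the 5 that stayed called without each library were lower. Among nucleotide synthesis genes Rrm2, a ribonucleotide reductase subunit, was lower (265 and 288 TPM in Abl.2 and 599.7 and 615 TPM in Abl.3, log2 difference -1.13, SE 0.082, adjusted p = 0.000149), as was the purine salvage gene Hprt on X (154 and 182 TPM in Abl.2 and 308 and 321 TPM in Abl.3, log2 difference -0.90, SE 0.13, adjusted p = 0.00258), while Cad, which starts pyrimidine synthesis, was higher (107 and 98.9 TPM in Abl.2 and 59.8 and 48.8 TPM in Abl.3, log2 difference 0.92, SE 0.11, adjusted p = 0.00145). Of 27 members 4 were higher and 5 lower, and 2 and 8 after centring.

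Respiratory chain genes were more often called lower than higher in Abl.2. Of 71 tested subunits of the nuclear-encoded respiratory chain 18 were lower and 3 higher, with a median of -0.19, and the leave-one-out counts were 6, 6, 12 and 5. The number of lower genes was 16 after quantile normalisation, 39 after centring and 27 of 52 tested in edgeR. The complex I subunit gene Ndufb11 on X was at 245 and 239 TPM in Abl.2 and 379 and 441 TPM in Abl.3 (log2 difference -0.75, SE 0.09, adjusted p = 0.00123) and stayed called without each library. Uqcrq of complex III was at 901 and 869 TPM in Abl.2 and 1605 and 1697 TPM in Abl.3 (log2 difference -0.90, SE 0.081, adjusted p = 0.000403), but was higher in Abl.2 in edgeR on the summed allelic counts, which were only 15 to 45 a library for this gene. The 3 higher subunits, Ndufs7, Atp5b and Atp5d, lie on chromosome 10, and of them only Atp5d kept its call without each library. Atp5b, the beta subunit of ATP synthase, was at 3999 and 4005 TPM in Abl.2 and 2869.7 and 2931 TPM in Abl.3 (log2 difference 0.46, SE 0.096, adjusted p = 0.0101), -0.12 relative to its chromosome, and was lower in Abl.2 in edgeR. Outside chromosomes 4 and 10 no tested subunit was called higher and 18 were called lower by limma. In the citrate cycle the cytosolic aconitase Aco1 on chromosome 4, which is also the iron regulatory protein, was at 35.5 and 35.9 TPM in Abl.2 and 1.36 and 0.7 TPM in Abl.3 (log2 difference 4.19, SE 0.17, adjusted p = 1.39e-05). Its maternal share was 1.00 and 1.00 in Abl.2 and 0.022 and 0.014 in Abl.3, over 147 to 7774 allelic counts a library. The counts of Abl.2 were thus maternal, and the few of Abl.3 paternal. Citrate synthase (Cs) on chromosome 10 was at 254 and 259.9 TPM in Abl.2 and 160.3 and 153 TPM in Abl.3 (log2 difference 0.71, SE 0.071, adjusted p = 0.000594), 0.12 above the median of its chromosome. Of 27 tested members of the cycle 5 were higher and 4 lower, against 2 and 9 after centring, with leave-one-out counts of 4, 3, 5 and 4. The pentose phosphate pathway had 1 call among 8 genes, Pgls (1342 and 1189 TPM in Abl.2 and 836 and 775 TPM in Abl.3, log2 difference 0.65, SE 0.12, adjusted p = 0.00746), which was lost without Abl.2 replicate 1 or Abl.3 replicate 2. The span of Pgls overlaps that of Fam129c, and its higher counts were maternal like those of Fam129c, with 673 and 649 CPM in Abl.2 against 267 and 261 CPM in Abl.3 for the maternal allele and 174 and 164 CPM in Abl.2 against 238 and 227 CPM in Abl.3 for the paternal allele. Reads of these overlapping genes cannot be told apart here.

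Called cholesterol genes were, with 1 exception, higher in Abl.2, and as many genes of the list did not pass the test. Scap (chromosome 9, 110333288 to 110384950), the sterol sensor that releases SREBP factors, was at 193 and 178 TPM in Abl.2 and 101 and 91.9 TPM in Abl.3 (log2 difference 0.94, SE 0.092, adjusted p = 0.00057). Lanosterol synthase (Lss) on chromosome 10 was at 64.6 and 68.4 TPM in Abl.2 and 35.1 and 29.9 TPM in Abl.3 (log2 difference 1.01, SE 0.10, adjusted p = 0.000606), 0.42 above the median of its chromosome. Both were separated between the lines. Of 28 tested members 13 were higher and 1 lower. Of these members 9 were higher after quantile normalisation, 7 after centring and 9 in edgeR, where 2, 4 and 4 were lower. The leave-one-out counts were 9, 9, 10 and 10, and the calls kept without each library included Srebf2 (0.46), Hmgcs1 (0.50) and Insig1 (0.63).

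Fatty acid genes differed in both directions. Scd1 (chromosome 19, 44394451 to 44407709), which makes monounsaturated fatty acids, was at 3.91 and 4.46 TPM in Abl.2 and 28.5 and 29.7 TPM in Abl.3 (log2 difference -2.54, SE 0.11, adjusted p = 1.76e-05), and the elongase Elovl6 was lower too (26.7 and 28.6 TPM in Abl.2 and 49.1 and 53.8 TPM in Abl.3, log2 difference -0.87). Fatty acid synthase (Fasn) was higher, at 171 and 159 TPM in Abl.2 and 119 and 108 TPM in Abl.3 (log2 difference 0.54), as was the acyltransferase Gpam (38.1 and 41.4 TPM in Abl.2 and 20.5 and 20.3 TPM in Abl.3, log2 difference 0.93, SE 0.091, adjusted p = 0.000556). Of 19 tested synthesis genes 6 were higher and 4 lower, 4 and 5 after centring. In fatty acid oxidation Eci1 (chromosome 17, 24426641 to 24439348), an enoyl-CoA isomerase of mitochondria, was at 32.8 and 34.6 TPM in Abl.2 and 0.09 and 0 TPM in Abl.3 (log2 difference 5.05, SE 0.17, adjusted p = 7.26e-06), and Abl.4 had 0 and 0.18 TPM. The rate-limiting carnitine transferase Cpt1a was higher (55.9 and 54.7 TPM in Abl.2 and 33.2 and 31.96 TPM in Abl.3, log2 difference 0.74, SE 0.086, adjusted p = 0.00103) and Ech1 lower (69.2 and 86.8 TPM in Abl.2 and 161 and 142 TPM in Abl.3, log2 difference -0.95, SE 0.12, adjusted p = 0.00172). The counts of Eci1 in Abl.2 came from the paternal allele, with maternal shares of 0 and 0.0013. Of 19 tested oxidation genes 5 were higher and 4 lower, 5 and 7 after centring, with leave-one-out counts of 6, 5, 6 and 6.

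Redox and metal genes were mixed. Mgst2, a microsomal glutathione transferase, was at 0 and 1.27 TPM in Abl.2 and 51.8 and 57.8 TPM in Abl.3 (log2 difference -5.21, SE 0.35, adjusted p = 0.000116), and Hmox1, haem oxygenase, was at 2.28 and 2.53 TPM in Abl.2 and 16.8 and 11.6 TPM in Abl.3 (log2 difference -2.14, SE 0.19, adjusted p = 0.000356). Gsto1, a transferase of another class, was at 109 and 109 TPM in Abl.2 and 38.9 and 37.97 TPM in Abl.3 (log2 difference 1.48, SE 0.076, adjusted p = 3.76e-05). The lines did not overlap in any of the 3 genes. Txnrd1, thioredoxin reductase, of chromosome 10 was higher (183 and 181 TPM in Abl.2 and 91.9 and 89.9 TPM in Abl.3, log2 difference 0.99, 0.41 relative to its chromosome), and Nfe2l2, the factor of the antioxidant response, was lower (36.6 and 36.9 TPM in Abl.2 and 51.02 and 52.2 TPM in Abl.3, log2 difference -0.48). Of 24 tested members 5 were higher and 8 lower, with leave-one-out counts of 7, 11, 8 and 12. Of 9 tested metallothionein and zinc transporter genes 5 were higher and 1 lower, 1 and 2 after quantile normalisation, and the leave-one-out counts were 1, 2, 1 and 1. Mt1 was at 949.7 and 884 TPM in Abl.2 and 721 and 741 TPM in Abl.3 and did not pass the test (log2 difference 0.33, SE 0.14, adjusted p = 0.122), yet its maternal share was 0.97 and 0.97 in Abl.2 and 0.05 and 0.05 in Abl.3. Its maternal allele gave 234 and 255 CPM in Abl.2 against 11.98 and 14.1 CPM in Abl.3, and its paternal allele gave 7.005 and 7.701 CPM in Abl.2 against 229.8 and 268 CPM in Abl.3. The transcripts of the lines came mainly from opposite alleles.

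**Figure D5:**
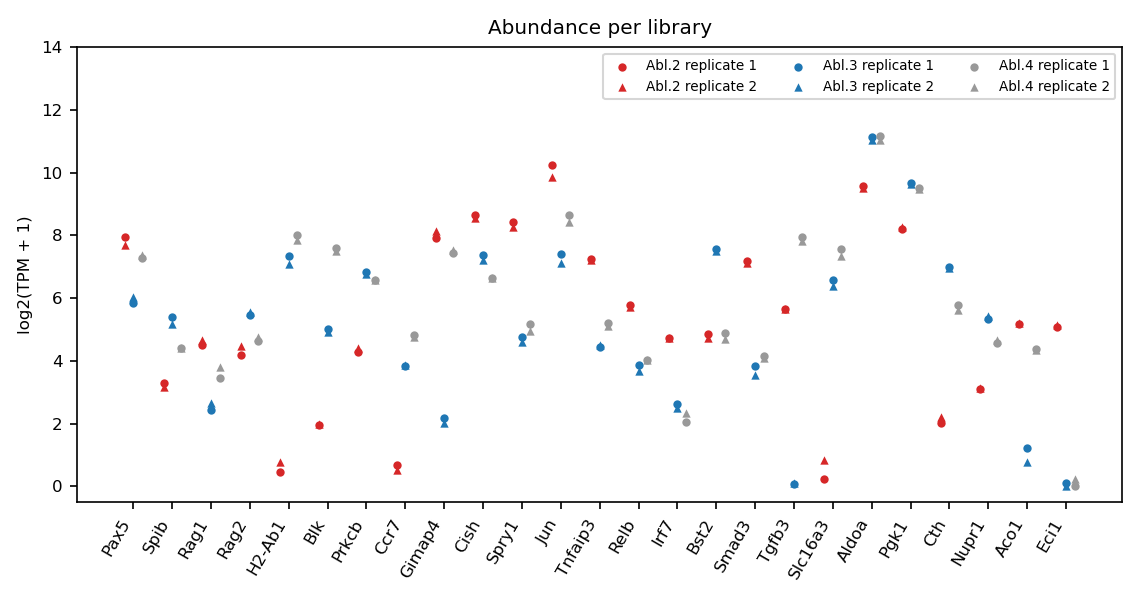
Log2(TPM + 1) of 25 genes described in the text, 1 point per library (circle replicate 1, triangle replicate 2), for Abl.2 (red), Abl.3 (blue) and Abl.4 (grey). In each gene the pair of libraries of Abl.2 lies apart from the pair of Abl.3, and Abl.4 falls near Abl.3 for Spry1, Smad3 and Aldoa and near Abl.2 for Gimap4 and Bst2.

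Outside chromosomes 4 and 10, the 10 largest rises and falls in Abl.2 were taken among called genes with a mean log2(TPM + 1) of at least 5. Lgals1 (chromosome 15, 78926725 to 78930465), galectin-1, was at 2.8 and 3.91 TPM in Abl.2 and 416 and 483 TPM in Abl.3 (log2 difference -6.70, SE 0.14, adjusted p = 1.58e-06), the largest fall by this rule. Gsn, the actin-severing protein gelsolin, was at 14.2 and 13.3 TPM in Abl.2 and 299.6 and 280.1 TPM in Abl.3 (log2 difference -4.30, SE 0.12, adjusted p = 4.25e-06), and Slamf7, a receptor of the SLAM family, was at 17.2 and 21.5 TPM in Abl.2 and 249 and 250.4 TPM in Abl.3 (log2 difference -3.63, SE 0.13, adjusted p = 1.13e-05). The lines were apart in each, and Abl.4 was high for Lgals1 and Gsn and low for Slamf7 (3.14 and 3.82 TPM). The other falls were Sapcd1 (-3.27), Ddah2 (-2.94), Bst2, Bfsp2 (-2.71), Nov (-2.62), Crhbp (-2.49) and Prkcb. Nov lay almost on 1 allele in Abl.2, with a maternal share of 0.0093 and 0.018 in Abl.2 and 0.78 and 0.79 in Abl.3. The rises, beside Gimap4, Spry1 and Smad3, were led by Fam129c (chromosome 8, 71597648 to 71607936), at 549.9 and 487 TPM in Abl.2 and 15.4 and 15.8 TPM in Abl.3 (log2 difference 4.97, SE 0.19, adjusted p = 1.16e-05). Shisa5, a p53-induced membrane protein gene, was at 373 and 322 TPM in Abl.2 and 53.7 and 47.5 TPM in Abl.3 (log2 difference 2.76, SE 0.10, adjusted p = 1.16e-05), and Spp1, osteopontin, was at 383 and 409 TPM in Abl.2 and 61.5 and 55.6 TPM in Abl.3 (log2 difference 2.74, SE 0.084, adjusted p = 5.96e-06). Klf6 was at 259 and 271 TPM in Abl.2 and 42.4 and 45.8 TPM in Abl.3 (log2 difference 2.56), the sugar carrier Slc2a6 at 78.3 and 77.2 TPM in Abl.2 and 11.9 and 12.9 TPM in Abl.3 (log2 difference 2.56), Adgrg3 at 124 and 118 TPM in Abl.2 and 23.6 and 20.1 TPM in Abl.3 (log2 difference 2.42) and the leukotriene hydroxylase gene Cyp4f18 at 185 and 175 TPM in Abl.2 and 34.03 and 33.9 TPM in Abl.3 (log2 difference 2.37). The libraries of the lines did not overlap in these genes. Abl.4 was near Abl.3 for Fam129c, Shisa5 and Slc2a6 and near Abl.2 for Klf6 and Adgrg3, and held 1117 and 940.2 TPM of Cyp4f18. Fam129c was higher in the maternal allele, with 863 and 789 CPM in Abl.2 against 25.2 and 17.4 CPM in Abl.3, and its paternal allele gave 10.9 and 10.2 CPM in Abl.2 against 12.4 and 15.8 CPM in Abl.3. The peptide transporter gene Abcb9, named after its values were seen, had the largest fall of all 11003 genes (log2 difference -8.52) and missed the rule's minimum level.

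On chromosome 4 the 4 largest rises by the same rule were Jun, Epb41l4b, Coro2a and Pax5. Epb41l4b, a membrane skeleton gene, was at 138 and 147 TPM in Abl.2 and 20.2 and 20.9 TPM in Abl.3 (log2 difference 2.74, SE 0.087, adjusted p = 6.7e-06), and Coro2a, an actin-binding coronin, was at 112 and 115 TPM in Abl.2 and 18.6 and 16.8 TPM in Abl.3 (log2 difference 2.61, SE 0.084, adjusted p = 6.7e-06). The falls were Alpl, Sesn2, Ppt1 and Cdkn2c. Alpl, alkaline phosphatase, was at 164 and 155 TPM in Abl.2 and 676 and 606 TPM in Abl.3 (log2 difference -2.00, SE 0.093, adjusted p = 2.6e-05), and Ppt1, a lysosomal thioesterase, was at 144 and 151 TPM in Abl.2 and 455 and 422 TPM in Abl.3 (log2 difference -1.56, SE 0.085, adjusted p = 4.65e-05). The lines lay apart in these 8 genes, as the rule for naming them requires and as in 73.2% of the genes of chromosome 4. In Abl.2 these 8 genes were almost wholly maternal, with 1.00 and 0.99 in Abl.2 and 0.22 and 0.20 in Abl.3 for Ppt1 and 1.00 and 1.00 in Abl.2 and 0.72 and 0.69 in Abl.3 for Jun. In Abl.3 Epb41l4b and Coro2a were also mainly maternal, with shares of 0.948 and 0.962 for Epb41l4b and of 0.979 and 0.986 for Coro2a. For Pax5, with 262 to 723 allelic counts a library, the share was 1.00 and 0.99 in Abl.2 and 0.44 and 0.48 in Abl.3. Its maternal allele gave 23.9 and 26.8 CPM in Abl.2 against 5.89 and 6.81 CPM in Abl.3, and its paternal allele gave 0.044 and 0.149 CPM in Abl.2 against 7.397 and 7.46 CPM in Abl.3. In these counts the maternal allele of Pax5 was higher and the paternal allele lower in Abl.2. Both alleles together differed by less than the TPM, where the ratio of means, Abl.2 over Abl.3, was 3.77. The cause of this gap was not tested.

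On chromosome 10 the rises were Tnfaip3, Cited2, Sgk1 and Phlda1. Cited2, a transcriptional co-regulator, was at 1588 and 1309 TPM in Abl.2 and 244 and 214 TPM in Abl.3 (log2 difference 2.65, SE 0.13, adjusted p = 3.03e-05), and Sgk1, a kinase relative of Akt, was at 354 and 352 TPM in Abl.2 and 59.4 and 55.2 TPM in Abl.3 (log2 difference 2.60, SE 0.085, adjusted p = 7.24e-06). Phlda1 was at 365 and 328 TPM in Abl.2 and 83.5 and 80.8 TPM in Abl.3 (log2 difference 2.06, SE 0.096, adjusted p = 2.56e-05). Relative to the median of the chromosome these differences were 2.07, 2.01 and 1.47, and that of Tnfaip3 was 2.18. Each allele of Cited2 was also higher in Abl.2, but by less than the TPM. The maternal allele gave 104.9 and 87.6 CPM in Abl.2 against 54.75 and 55.7 CPM in Abl.3. The paternal allele gave 245 and 207 CPM in Abl.2 against 52.5 and 49.9 CPM in Abl.3. Both alleles of Tnfaip3 were higher in Abl.2, the maternal one with 183 and 178 CPM in Abl.2 against 39.8 and 37.7 CPM in Abl.3 and the paternal one with 399 and 378 CPM in Abl.2 against 51.5 and 49.3 CPM in Abl.3. The falls were Palm (44.1 and 38.03 TPM in Abl.2 and 97.8 and 89.6 TPM in Abl.3, log2 difference -1.17, SE 0.11, adjusted p = 0.00044), Itgb2, D10Jhu81e (40.9 and 43.1 TPM in Abl.2 and 80.8 and 81.4 TPM in Abl.3, log2 difference -0.93, SE 0.1, adjusted p = 0.000785) and Csrp2 (38.3 and 32.8 TPM in Abl.2 and 67.1 and 61.8 TPM in Abl.3, log2 difference -0.84, SE 0.15, adjusted p = 0.00627). The call of Csrp2 was lost without Abl.2 replicate 2. Relative to the chromosome, Palm was at -1.76 and Csrp2 at -1.43. Among list members on this chromosome, Tcf3 at 0.20, Hk1 at 0.079 and Atp5b at -0.12 lay close to the chromosome's median in TPM. The alleles of Hk1 did not share the chromosome's pattern, with a maternal allele of 13.3 and 18.1 CPM in Abl.2 against 54.9 and 53.5 CPM in Abl.3. Its paternal allele gave 117 and 114 CPM in Abl.2 against 41.4 and 38.3 CPM in Abl.3.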

How the data were processed

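RNA was sequenced from live cells of 3 clonal lines with a SMART-seq kit, in 2 libraries per line. The authors deposited an abundance table in TPM per gene and library, and per the file headers a table of counts per gene, library and parental allele. The submitters' processing notes name GRCm38, mm10 and GRCh37 as builds and STAR 2.5.4a, SAMtools, GATK and DESeq2 as tools, without roles. Of 35412 genes compared, 98.72% had the same start in the tables as in the GENCODE M21 annotation. The strand setting of the counting is not given in the sources used here, so values of overlapping or antisense genes are uncertain, Prkcb and Pax5 among them. Of 157 genes examined in detail 22 overlapped another tested gene.

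From these values log2(TPM + 1) was computed for the 11003 genes that averaged 1 TPM or more over the 6 libraries. All 6 libraries were fitted with limma 3.58.1 (R 4.3.3, moderated test with a trend of the variance, 3 residual degrees of freedom, two-sided), Abl.2 was set against Abl.3, and p-values were adjusted by Benjamini-Hochberg over all genes at a threshold of 0.05. TPM gives no depth. The allelic counts of the 4 libraries totalled 22699395, 26881211, 19873375 and 18362319, and a maternal share was taken where a gene had at least 20 allelic counts. Replicates of a line had a correlation across genes of log2 TPM of 0.9895 and 0.9898 and differed by more than counting noise (chi-square per degree of freedom 14.3 and 11.62). The fit was tested on simulated data with known changes.

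The members and the 30 gene lists were chosen with earlier results of these data known, so their counts are no independent evidence. Named genes were, for each list, the 4 called members with the largest absolute difference. To these came the 10 largest called rises and falls outside chromosomes 4 and 10 and the 4 on each of these chromosomes, with a mean log2(TPM + 1) of at least 5 and a symbol that is no clone or predicted-gene name. The libraries of the lines had to lie apart in each. Other list members are given with their values and were chosen after these were seen. Some genes that this rule names are not reported here. The alternatives were another pseudocount or minimum, quantile normalisation, centring on the library median, a fit of 4 libraries, no trend, a replicate block, a minimum change, each library left out, and edgeR 4.0.16 and DESeq2 1.42.0 on the summed allelic counts with a mean of at least 20. The promoter windows are those of RefSeq on GRCm38.p6.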

Additional observations from a re-analysis of the deposited data

How the results depend on the processing

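Each of the 4 counts of called genes (all genes, outside chromosomes 4 and 10, chromosome 4 and chromosome 10) stayed within 1.5 times its value under the alternatives other than a minimum change and a library left out. The called genes themselves changed more than these counts. Of the 4382 calls 3529 were shared after quantile normalisation and 3306 after centring. On the summed allelic counts 2789 were shared in edgeR and 2780 in DESeq2, where genes with too few allelic counts were not tested. With an absolute log2 difference of at least 1 the counts were 1160, 970, 76 and 114. Without 1 library they were 2466 to 2811 for all genes, 2046 to 2350 outside chromosomes 4 and 10, 154 to 180 on chromosome 4 and 265 to 283 on chromosome 10. Fewer samples then estimate the spread. The median of chromosome 10 relative to all genes, 0.49, was 0.5186 with a pseudocount of 0.1 TPM, 0.4203 with 5 TPM, 0.3526 with no minimum, 0.5495 in edgeR, 0.5496 in DESeq2 and 0.4943 to 0.5243 without 1 library. On the summed allelic counts 5 named genes had the other sign, 116 kept their result and 7 were weaker. The rest of the 141 named genes had too few allelic counts, or none, and were not tested there. Other list members described above, among them H2-K1, Gapdh and Atp5b, also had the other sign in edgeR. In edgeR Vpreb2 was at -0.3659, Cd79a at -0.2508, Cd79b at -0.2417, B2m at -0.4454 and Uqcrq at 0.4595, and in DESeq2 they were at -0.3602, -0.2451, -0.2361, -0.4394 and 0.4657. The cause was not tested. Leaving out 1 library ended the calls of 14 to 18 named genes and reversed none. In the labels, replicates of the same number share only that number, and whether they were prepared together was not tested. The correlation of their deviations across genes, Abl.2 against Abl.3, was 0.104. A fit with the replicate block called 5213 genes, 4356 of them shared with the fit without it. The deposited TPM values carry no depth, so counting error of low genes such as H2-Eb1 or Eci1 is known only from the allelic counts.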
